A study of Mus musculus with 24 samples.

Results

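Ptn, Cemip, Npnt and Lrrc17 are 4 of the 24825 rows of each expression table. They were chosen by name, because RNA-seq at day 0 had shown them far lower in precursor cells that received NFIA than in cells that did not, with a mutant NFIA keeping part or all of the fall. The day 0 levels with either NFIA were therefore used to choose the genes, and every day 0 difference of the 4 genes below is a description without a test. Other genes are tested at day 0. The day 7 libraries did not enter that choice. The day 0 level of ctrl is not wholly independent of it, because genes chosen for a fall have to be expressed in precursors. Comparisons within day 7, and of ctrl over time, were tested.

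All 24 libraries came from stromal vascular cells of mouse inguinal white fat, a mixed preparation that holds adipocyte precursors, taken from Nfia flox/flox animals and immortalised with SV40 large T antigen. Every group therefore carried the floxed Nfia alleles, in which exon 2 is flanked by loxP sites, and the viral oncogene. The cell type named ctrl had received an empty retrovirus and Cre a retrovirus for Cre recombinase. Cells named Cre + NFIA had Cre together with full-length NFIA bearing a FLAG tag. Those named Cre + NFIA Δpro#3, called the mutant below, had Cre and a tagged NFIA lacking pro#3, a proline-rich segment near the C terminus. The added NFIA was driven from a retroviral vector and not from its own promoter. RNA was taken at day 0, before the differentiation mix, and at day 7 of differentiation towards thermogenic adipocytes. The mix held isobutylmethylxanthine, indomethacin, dexamethasone, insulin, triiodothyronine and rosiglitazone for the first phase, then insulin, triiodothyronine and rosiglitazone alone. Each of the 8 groups had 3 libraries.

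All 4 genes encode proteins that leave the cell or work at its surface. Ptn encodes pleiotrophin, a small heparin-binding growth factor that acts through receptors such as the phosphatase PTPRZ1, the kinase ALK and heparan sulfate proteoglycans. It is known to hold back adipogenic differentiation of precursors. Cemip encodes a protein needed for the breakdown of hyaluronan, the long sugar polymer of soft matrix. Npnt encodes nephronectin, a matrix protein with EGF-like repeats and an RGD motif that is the main ligand of integrin α8β1. Lrrc17 encodes a secreted leucine-rich repeat protein that restrains RANKL-driven osteoclast formation. NFIA itself is a transcription factor that binds the palindrome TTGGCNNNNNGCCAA or its shorter site TTGGC, and it can raise or lower the genes it acts on.

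The promoters are shown because the 4 genes were selected for being lower where a DNA-binding factor was added. On the NCBIM37 (mm9) build, which the expression tables used, Ptn lies at chr6:36665663-36761361 on the minus strand, Npnt at chr3:132544709-132613255 on the minus strand and Lrrc17 at chr5:21049345-21081718 on the plus strand. Cemip, which that annotation lists under an older symbol, lies at chr7:91081367-91235012 on the minus strand. All are annotated as protein coding. The sequences below are the 250 bases before the start site, 5′ to 3′ on the strand of the gene, from RefSeq on GRCm38.p6, a later build. All 4 genes were matched by symbol. Npnt has 2 start sites in that table and the upstream one is shown. Ptn is at chr6:36810180-36810429, Cemip at chr7:84086506-84086755, Npnt at chr3:132950292-132950541 and Lrrc17 at chr5:21543277-21543526. Capitals mark every match, on either strand, to any of the 5 patterns searched.
Ptn: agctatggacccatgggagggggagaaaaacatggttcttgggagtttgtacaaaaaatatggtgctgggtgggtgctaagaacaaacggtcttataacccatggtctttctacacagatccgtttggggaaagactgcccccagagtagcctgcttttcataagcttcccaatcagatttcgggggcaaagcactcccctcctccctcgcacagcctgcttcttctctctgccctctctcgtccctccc
Cemip: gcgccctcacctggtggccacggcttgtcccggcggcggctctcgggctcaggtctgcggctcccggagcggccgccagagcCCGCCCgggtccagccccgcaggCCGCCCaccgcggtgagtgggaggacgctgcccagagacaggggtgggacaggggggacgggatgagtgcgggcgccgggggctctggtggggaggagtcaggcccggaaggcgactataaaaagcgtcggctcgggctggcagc
Npnt: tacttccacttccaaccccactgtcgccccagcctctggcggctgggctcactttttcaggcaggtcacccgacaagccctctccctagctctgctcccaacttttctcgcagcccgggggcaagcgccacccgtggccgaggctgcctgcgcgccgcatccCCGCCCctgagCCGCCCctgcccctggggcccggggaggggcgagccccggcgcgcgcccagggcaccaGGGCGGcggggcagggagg
Lrrc17: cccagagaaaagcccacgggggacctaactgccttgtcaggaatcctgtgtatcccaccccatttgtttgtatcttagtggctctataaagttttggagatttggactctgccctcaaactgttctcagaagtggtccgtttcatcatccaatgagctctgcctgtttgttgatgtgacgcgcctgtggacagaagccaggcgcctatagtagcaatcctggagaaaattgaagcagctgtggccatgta

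The patterns were the short NFI site TTGGC, the longer TTGGCA that contains it, the palindrome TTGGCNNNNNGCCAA that holds the short site on both strands, the AP-1 element TGANTCA and the GC box GGGCGG. Over 32851 promoters of the same length, TTGGC occurred in 41.5%, TTGGCA in 12.3%, the palindrome in 0.0365%, TGANTCA in 6.75% and GGGCGG in 32.7%. None of the 4 windows held any of the 3 NFI patterns or the AP-1 element. The GC box was found 2 times before Cemip, starting 168 and 145 bases upstream, and 3 times before Npnt, starting 88, 77 and 19 bases upstream. The Cemip and Npnt windows were 75.2% and 74.0% G or C, above the upper quartile of all promoters (61.2%). The Ptn and Lrrc17 windows, at 52.0% and 49.2%, were near the median of 52.4% and had no match to any pattern. A missing match says only that these letters are not in this window.

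Levels are FPKM, read counts divided by gene length and library total, so that levels of different genes can be compared. Libraries held 7732829 to 14622189 reads counted to genes. The lowest count for any of the 4 genes was 32 reads, for Npnt, and the others had at least 137 reads in every library. Nfia, the targeted gene, was at 6.47 ± 0.264 FPKM (SD, n = 3) in ctrl and 6.21 ± 0.773 in the libraries labelled Cre at day 0. At day 7 these levels were 9.55 ± 0.355 and 10.1 ± 0.588. The gene-level value, which also counts reads outside exon 2, therefore did not show the deletion. By genomic PCR, RT-qPCR and western blot, the paper reported efficient recombination and a nearly complete loss of NFIA mRNA and protein with Cre. With the added full-length NFIA the gene-level value was 72.4 ± 2.63 at day 0 and 90.0 ± 6.68 at day 7. With the mutant it was 60.7 ± 1.01 and 102 ± 8.44. These values include reads of the transgene.

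Before differentiation, the 4 genes had levels in libraries labelled Cre within 0.25 of ctrl on the log2 scale, were 4.93 to 11.0 times lower with full-length NFIA than in Cre, and 3.20 to 5.63 times lower with the mutant. Ptn was among the most abundant RNAs of these precursors, higher than 99.4% of tested genes in ctrl and in Cre. Its level was 528, 608 and 542 FPKM in the ctrl libraries and 574, 612 and 533 FPKM in those labelled Cre. With full-length NFIA it was 72.0, 78.9 and 86.7 FPKM, and with the mutant 153, 157 and 184 FPKM. The groups with and without added NFIA were far apart, and the mutant libraries all lay above the full-length ones, at 2.08 times their mean.

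For Cemip the ctrl libraries gave 48.7, 45.7 and 49.2 FPKM, and those labelled Cre gave 49.0, 42.9 and 45.7 FPKM. It was at 7.74, 7.48 and 7.20 FPKM with full-length NFIA and at 15.2, 14.4 and 13.3 FPKM with the mutant. As for Ptn, the mutant held an intermediate level without overlap on either side. Npnt was the least abundant of the 4. The ctrl libraries gave 6.76, 6.10 and 6.53 FPKM, just below the 8.20, 8.76 and 6.78 FPKM of Cre. With full-length NFIA it was at 0.723, 0.706 and 0.719 FPKM, from 32 to 37 reads, and with the mutant at 1.52, 1.48 and 1.22 FPKM. By the ratio of means Npnt was 11.0 times lower with full-length NFIA than in Cre, Ptn 7.24, Cemip 6.13 and Lrrc17 4.93 times.

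The ctrl libraries had 60.7, 62.8 and 57.0 FPKM of Lrrc17, and the Cre libraries overlapped them at 56.4, 62.5 and 49.7 FPKM. It was at 10.5, 12.6 and 11.0 FPKM with full-length NFIA and at 11.5, 12.5 and 14.5 FPKM with the mutant. Here the 2 forms of NFIA overlapped, unlike in the other 3 genes. On the log2(FPKM + 1) scale used for all differences below, the fall from Cre to full-length NFIA was -2.84 in Ptn, -2.47 in Cemip, -2.37 in Npnt and -2.20 in Lrrc17. With the mutant these differences were -1.79, -1.61, -1.88 and -2.05. The mutant thus kept 63.2% of the log2 fall in Ptn, 65.4% in Cemip, 79.5% in Npnt and 93.0% in Lrrc17. Because 1 is added before the logarithm, the scale compresses low genes. From ratios of means without it the share was 71.9% for Npnt and 63.0%, 64.2% and 92.7% for the others.

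**Figure D1:**
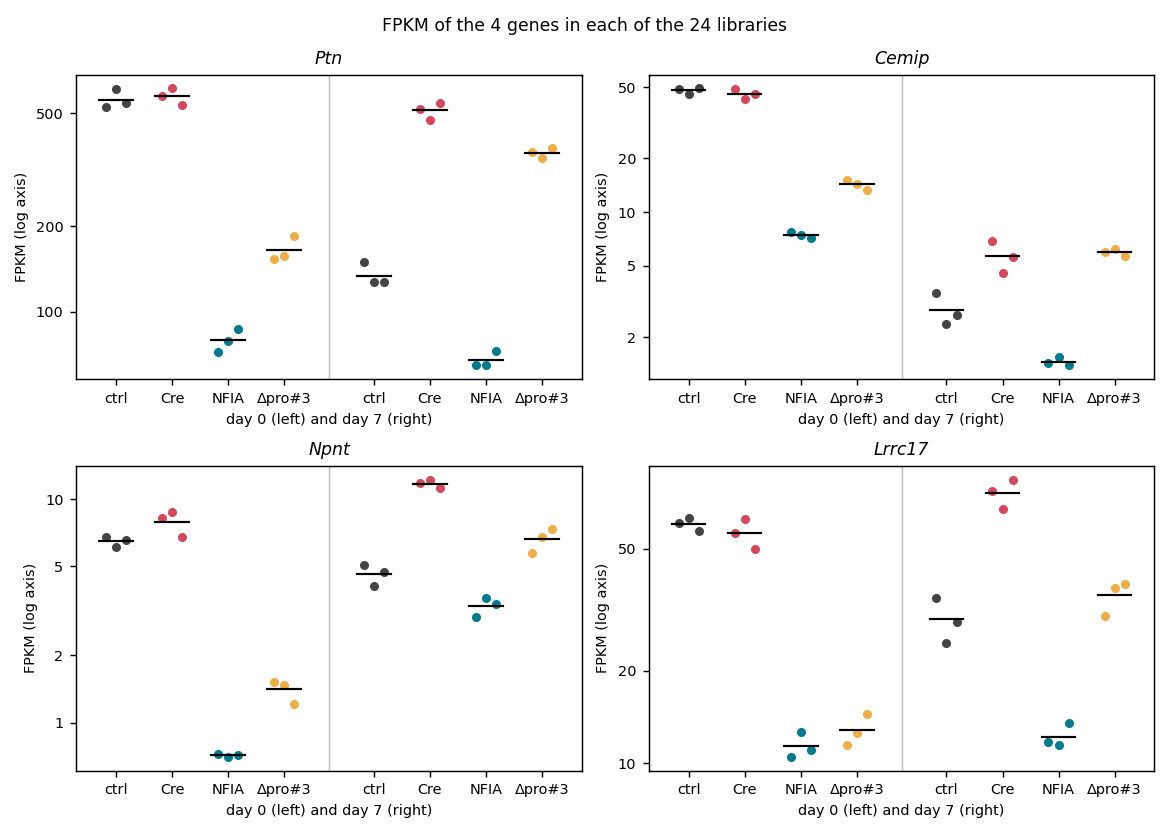
FPKM (log axis) of Ptn, Cemip, Npnt and Lrrc17 in each library, by cell type, with day 0 to the left and day 7 to the right of the grey line. Points are libraries and black bars are group means (n = 3). At day 0 both forms of NFIA sit below ctrl and Cre in all 4 genes, and at day 7 Cre and the mutant lie above full-length NFIA.

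On this scale, of 12640 tested genes, Ptn, Cemip and Npnt had the largest falls from Cre to full-length NFIA at day 0, and Lrrc17 had the sixth largest. Between Npnt and Lrrc17 came Cacna1g, a T-type calcium channel subunit, at -2.36, and Slc7a8, an amino acid transporter, at -2.31. Just below Lrrc17 were Igfbp3 at -2.08 and Igf2 at -2.03, an IGF binding protein and an IGF ligand. With full-length NFIA 0.166% of tested genes were called lower at day 0, that is, they had an adjusted p under 0.05 and fell at least 3-fold, and with the mutant 0.0791% were. These shares are background only, since the choice of the 4 genes used the same contrasts. In the order of falls with the mutant Lrrc17 was 3rd, Npnt 8th, Ptn 9th and Cemip 12th, and 4 of the 8 other genes above Cemip were microRNA genes 56 to 81 bases long.

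At day 7 the 4 genes were all higher in libraries labelled Cre than in ctrl. Ptn was at 517, 475 and 543 FPKM in Cre and at 149, 127 and 127 FPKM in ctrl, 3.81 times higher. Its log2 change was 1.92 (SE 0.08, limma adjusted p = 5.44e-08). Lrrc17 was at 77.1, 67.5 and 83.9 FPKM in Cre and at 34.6, 24.7 and 28.8 FPKM in ctrl, 2.59 times higher, and rose by 1.35 (SE 0.13, limma adjusted p = 4.03e-06). Npnt was at 11.8, 12.2 and 11.2 FPKM against 5.06, 4.07 and 4.71 FPKM and rose by 1.19 (SE 0.10, limma adjusted p = 1.63e-06). Cemip, by then a low gene, was at 6.87, 4.56 and 5.61 FPKM against 3.53, 2.36 and 2.66 FPKM and rose by 0.79 (SE 0.13, limma adjusted p = 2.57e-04). The ranges of Cre and ctrl did not overlap in any of the 4 genes, and all 4 passed, where 36.1% of all tested genes passed in that direction. Ptn alone also changed at least 3-fold, as did 0.237% of tested genes in that direction. At day 0 the same comparison had given values of only 0.04 for Ptn, -0.06 for Cemip, 0.25 for Npnt and -0.10 for Lrrc17.

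All 4 genes were lower with full-length NFIA than in Cre at day 7, a comparison that shares the Cre libraries with the one above. Ptn fell to 64.6, 64.9 and 72.7 FPKM, 7.59 times below Cre, a log2 change of -2.91 (SE 0.08, limma adjusted p = 3.64e-10) that was the largest fall of all tested genes. Lrrc17 fell to 11.7, 11.5 and 13.5 FPKM, 6.23 times below Cre, or by -2.54 (SE 0.13, limma adjusted p = 2.32e-08), the sixth largest fall. Npnt fell to 2.98, 3.63 and 3.41 FPKM, or by -1.56 (SE 0.10, limma adjusted p = 9.07e-08). Cemip fell to 1.44, 1.54 and 1.39 FPKM, or by -1.43 (SE 0.13, limma adjusted p = 1.77e-06). All 4 passed against a background of 35.9% in that direction. Ptn and Lrrc17 passed with at least 3-fold on the log2 scale, as did 1.50% of tested genes. By the ratio of means Cemip and Npnt also fell more than 3 times, by 3.89 and 3.52. The log2 changes of these low genes depend on the constant added, and with 5 in place of 1 they were -0.72 and -1.01 and still passed.

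The levels with full-length NFIA at day 7 were also below those of ctrl. The log2 change was -0.98 for Ptn (limma adjusted p = 1.05e-05), -1.19 for Lrrc17 (9.61e-05), -0.63 for Cemip (0.00648) and -0.37 for Npnt (0.0201). None of the 4 genes had overlapping ranges between the 2 groups, and all passed where 9.15% of tested genes did in that direction. The fall of Npnt no longer passed when any of 3 libraries was left out. It was -0.31 without ctrl replicate 1 (limma adjusted p = 0.0798), -0.36 without ctrl replicate 3 (0.0585) and -0.31 without Cre + NFIA replicate 1 (0.0852).

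With the mutant, 3 of the 4 genes were lower than in Cre at day 7, by 16.9% to 48.2% of the full-length change, where the day 0 shares had been 63.2% to 93.0%. The difference between the days was not tested. The genes were chosen partly because the mutant kept part or all of the fall at day 0, which favours high day 0 shares. The choice may thus favour a lower share at day 7. Ptn was at 364, 348 and 378 FPKM with the mutant, 1.41 times below Cre and 5.39 times above full-length NFIA. Against Cre its log2 change was -0.49 (SE 0.08, limma adjusted p = 0.00140), 16.9% of the full-length fall. Npnt was at 5.73, 6.77 and 7.31 FPKM and changed by -0.75 (SE 0.10, limma adjusted p = 6.55e-04), 48.2% of the fall. Lrrc17 was at 30.2, 37.3 and 38.5 FPKM and changed by -1.09 (SE 0.13, limma adjusted p = 4.01e-04), 42.8% of the fall. Those 3 genes passed in a direction in which 10.0% of tested genes did.

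Cemip was the exception against Cre. It was at 5.96, 6.23 and 5.65 FPKM with the mutant, inside the range of Cre, and the difference of 0.07 (95% interval -0.22 to 0.36, limma adjusted p = 0.763) did not pass. Without Cre replicate 2 it was -0.06, so its sign rested on 1 library. Against full-length NFIA all 4 genes were higher with the mutant. The log2 change was 2.41 for Ptn (limma adjusted p = 8.38e-10), 1.50 for Cemip (7.16e-07), 1.46 for Lrrc17 (7.03e-07) and 0.81 for Npnt (1.10e-05), where 40.4% of tested genes passed as higher. Ptn alone was at least 3-fold higher on this scale, as were 2.33% of tested genes, although Cemip by the ratio of means was 4.07 times higher.

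Relative to ctrl at day 7, Ptn, Cemip and Npnt were higher with the mutant, by 1.43, 0.86 and 0.44 (limma adjusted p = 4.27e-08, 9.37e-05 and 0.00162), where 41.4% of tested genes passed as higher. For Lrrc17 the ranges overlapped and the difference was 0.26 (95% interval -0.01 to 0.54, limma adjusted p = 0.0844). It passed without ctrl replicate 1, at 0.39 (0.0175), and without Cre + NFIA Δpro#3 replicate 1, at 0.37 (0.027). In this comparison the median change of all genes was 0.126. It became -0.002 after rescaling by median-of-ratios size factors, and then the 4 values were 1.28 for Ptn, 0.74 for Cemip, 0.31 for Npnt and 0.12 for Lrrc17. The same step moved the median between Cre and ctrl from 0.091 to -0.021, with values of 1.79 for Ptn, 0.69 for Cemip, 1.07 for Npnt and 1.22 for Lrrc17. It moved the median between the mutant and full-length NFIA from 0.097 to -0.007, with values of 2.29, 1.40, 0.70 and 1.34 in the same order of genes. All of these passed but the one for Lrrc17 against ctrl.

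**Figure D2:**
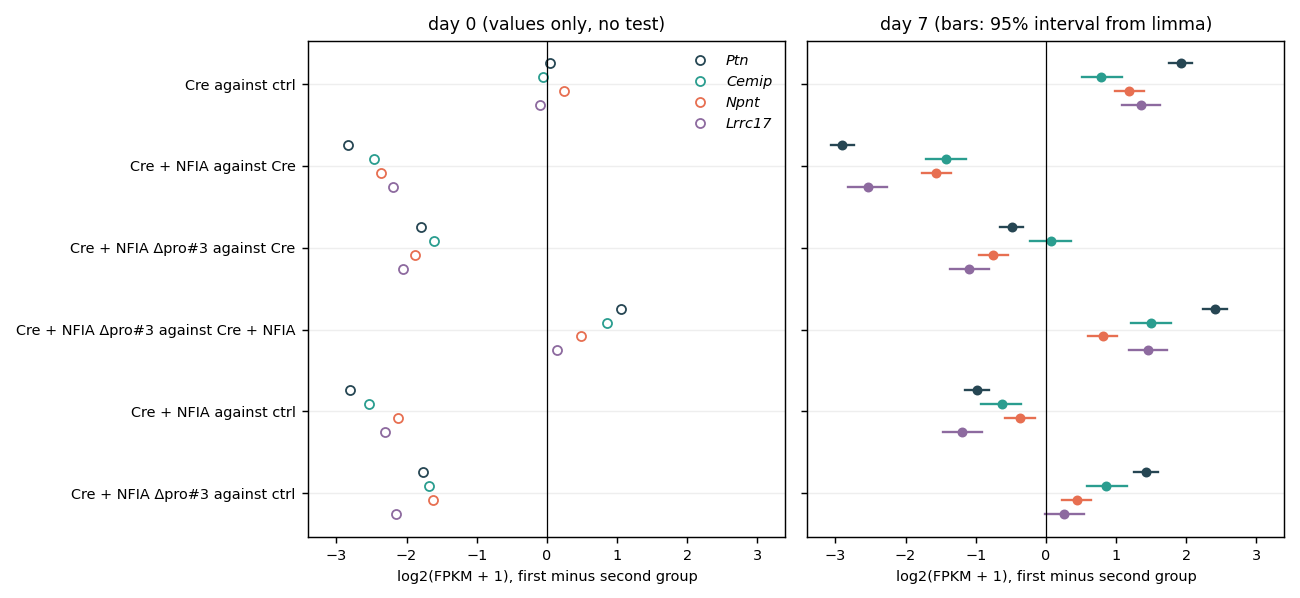
Differences of mean log2(FPKM + 1) between cell types at day 0 (open circles, values without a test) and day 7 (filled circles with 95% intervals from limma). Comparisons share groups and are not independent of each other. The mutant lies below ctrl in all 4 genes at day 0 and above it in Ptn, Cemip and Npnt at day 7.

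Adipocyte formation also differed between the day 7 groups. The summed FPKM of 8 adipocyte markers (Adipoq, Fabp4, Plin1, Cidec, Pparg, Lpl, Cd36 and Lipe) was 22100 to 25557 in ctrl and 20854 to 21094 with full-length NFIA, but 4426 to 9472 in Cre and 842 to 2145 with the mutant. At day 0 it was 70.7 to 113 over all libraries. The sum of 10 precursor and stromal markers, among them Pdgfra, Col1a1 and Col3a1, ran the other way at day 7, with 1341 to 1470 in ctrl, 1055 to 1185 with full-length NFIA, 2403 to 2721 in Cre and 2648 to 3097 with the mutant. At day 0 this sum was 3911 to 4230 in ctrl, 3639 to 3908 in Cre, 3194 to 3325 with full-length NFIA and 3373 to 3410 with the mutant. The part of these shifts in the levels of the 4 genes was not tested, and in bulk RNA fewer cells of a type and less RNA per cell cannot be told apart.

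Markers of several other cell types were low. Summed FPKM stayed at or below 10.2 for 5 endothelial, 8.69 for 4 mesothelial, 2.32 for 4 Schwann, 6.43 for 5 skeletal muscle and 0.311 for 4 epithelial markers. Cdh5, Ptprc, Adgre1, Cd3e, Msln, Upk3b, Sox10, Myod1, Myog, Myf5, Ckm, Epcam, Krt8 and Krt18 never exceeded 3 reads. The other immune markers, Cd68 and Lyz2, summed to 7.04 to 9.76 in ctrl and Cre and 9.18 to 11.0 with either NFIA at day 0. At day 7 this sum was 8.52 to 9.31 with the mutant and 4.37 to 7.07 in the other groups.

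Some stromal and skeletal markers moved with the groups. The sum of 6 pericyte and smooth muscle markers at day 0 was 218 to 253 in ctrl, 161 to 181 in Cre, 117 to 133 with full-length NFIA and 128 to 139 with the mutant, so that it was lower along with the 4 genes where NFIA was added. At day 7 it was 236 to 302 in ctrl, 289 to 352 in Cre, 133 to 159 with full-length NFIA and 383 to 471 with the mutant. The sum of 7 bone and cartilage markers, of which Ibsp, Sost and Acan never exceeded 3 reads, was 18.2 to 24.5 in ctrl and Cre and 29.9 to 33.8 with either NFIA at day 0. At day 7 it was 41.6 to 45.0 with the mutant, 20.1 to 24.1 in Cre, 11.3 to 13.0 in ctrl and 9.33 to 14.7 with full-length NFIA. The part of these and of the immune shifts in the levels of the 4 genes was not tested.

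Over differentiation of ctrl cells all 4 genes fell, each without overlap between the days, where 38.1% of tested genes passed as lower. A gene chosen for a large fall at day 0 has to be expressed in precursors, so the starting level of ctrl is not wholly independent of the choice. The choice may thus favour a fall over time, and the p-values and ranks below do not allow for it. Cemip fell most, from 47.9 ± 1.86 to 2.85 ± 0.607 FPKM (n = 3 each), 16.8 times, a log2 change of -3.68 (SE 0.10, limma adjusted p = 8.57e-17) that was the fourth largest fall of all tested genes. Ptn fell from 559 ± 42.6 to 134 ± 12.7 FPKM, or by -2.05 (SE 0.09, limma adjusted p = 1.42e-14). These 2 passed with at least 3-fold, as did 2.86% of tested genes. Lrrc17 changed by -1.02 (SE 0.12, limma adjusted p = 1.50e-07) and Npnt by -0.41 (SE 0.09, limma adjusted p = 5.37e-04), from 6.46 ± 0.334 to 4.61 ± 0.501 FPKM.

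In the other cell types the change over time took different directions, given here as values because those day 0 groups were used in choosing the genes. Cemip was lower at day 7 than at day 0 in each, by -2.82 in Cre, -1.78 with full-length NFIA and -1.14 with the mutant. The other 3 genes took no such common course. In Cre, Ptn differed by -0.16 with overlapping ranges, and Npnt and Lrrc17 were higher at day 7 by 0.52 and 0.43. With full-length NFIA, Ptn and Lrrc17 were near their low day 0 level, at -0.23 and 0.09 with overlap, while Npnt was higher by 1.33, from 0.716 to 3.34 FPKM. With the mutant, Ptn, Npnt and Lrrc17 were higher at day 7 by 1.14, 1.66 and 1.39, without overlap, which is 2.20, 4.69 and 2.76 times the day 0 mean. Because the genes were chosen for low day 0 levels with either NFIA, the choice may favour a later rise in those cells. The share of all genes that rose over time in these cell types was not counted.

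**Figure D3:**
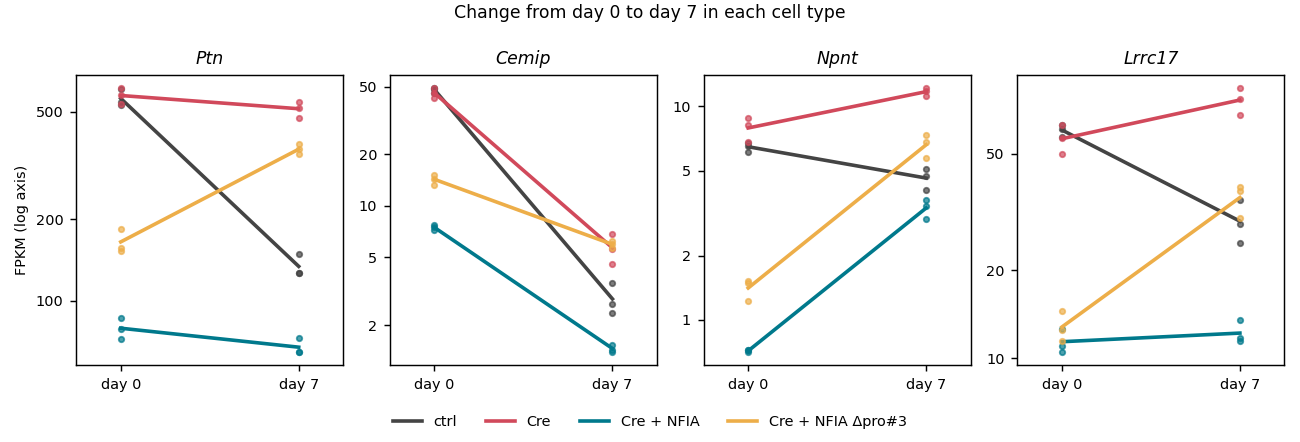
FPKM (log axis) at day 0 and day 7 in each cell type, with libraries as points and lines joining group means. Cemip is lower at day 7 in all 4 cell types, while Ptn, Npnt and Lrrc17 are lower in ctrl (-2.05, -0.41 and -1.02 on the log2 scale) and higher with the mutant (1.14, 1.66 and 1.39).

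The order of the 8 groups shows how the genes part. For Ptn it ran from Cre at day 0 (573 FPKM), ctrl at day 0 (559) and Cre at day 7 (512), where neighbours overlapped, to the mutant at day 7 (363), the mutant at day 0 (165), ctrl at day 7 (134) and the overlapping full-length groups at day 0 (79.2) and day 7 (67.4). Cemip was ordered by day, with every day 0 group above every day 7 group. From ctrl (47.9 FPKM) and Cre (45.8) at day 0, which overlapped, it went to the mutant (14.3) and full-length NFIA (7.47), and then at day 7 to the overlapping mutant (5.95) and Cre (5.68), to ctrl (2.85) and to full-length NFIA (1.46).

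For Npnt the highest group was Cre at day 7 (11.7 FPKM), then Cre at day 0 (7.91), the mutant at day 7 (6.60) and ctrl at day 0 (6.46), a run in which neighbours overlapped except the first pair. Ctrl at day 7 (4.61), full-length NFIA at day 7 (3.34), the mutant at day 0 (1.41) and full-length NFIA at day 0 (0.716) followed without overlap. Lrrc17 was likewise highest in Cre at day 7 (76.2 FPKM). Ctrl (60.2) and Cre (56.2) at day 0 overlapped below it, and so did the mutant (35.4) and ctrl (29.4) at day 7. The mutant at day 0 (12.8) and full-length NFIA at day 7 (12.2) and day 0 (11.4) overlapped in turn. The span from lowest to highest group mean was 8.50 times for Ptn, 32.8 for Cemip, 16.4 for Npnt and 6.69 for Lrrc17.

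Over the 24 libraries Pearson's r of log2(FPKM + 1) was 0.92 between Ptn and Lrrc17, 0.91 between Npnt and Lrrc17 and 0.78 between Ptn and Npnt. It was 0.68 between Ptn and Cemip, 0.46 between Cemip and Lrrc17 and 0.18 between Cemip and Npnt. These describe the 8 groups, which the libraries share 3 by 3, and the selection at day 0 fixed part of them. Among all tested genes the 3 most like Ptn were Runx1t1 (r = 0.978), which encodes a transcriptional corepressor, Dennd2a (0.971) and Smarcd3 (0.970), a subunit of SWI/SNF chromatin remodelling complexes. Runx1t1 was at 3.58 ± 0.754 FPKM in ctrl at day 0 and 0.704 ± 0.168 with full-length NFIA at day 7. Most like Cemip were Megf6 (0.985), Adamts3 (0.981), a procollagen-processing protease, and Susd2 (0.975). Megf6 went from 5.48 ± 0.962 FPKM in ctrl at day 0 to 0.155 ± 0.0182 with full-length NFIA at day 7.

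Npnt was followed most closely by Matn2 (0.978), encoding the matrix protein matrilin-2, Efnb1 (0.962), encoding ephrin-B1, and St6galnac2 (0.937), a sialyltransferase. Matn2 had its highest mean, 63.4 ± 3.11 FPKM, in Cre at day 7 and its lowest, 19.7 ± 1.19, with full-length NFIA at day 0, the same extremes as Npnt. For Lrrc17 they were Abat (0.969), a GABA transaminase, Cacna1g (0.966) and Daam2 (0.955), a formin. Abat was at 7.25 ± 1.01 FPKM in Cre at day 7 and 1.61 ± 0.160 with full-length NFIA at day 0.

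Of the pleiotrophin receptors, Alk and Ptprz1 were barely present in these cells, while Lrp1 (351 FPKM in Cre at day 0), Sdc4 (141), Ptprs (84.3), Sdc3 (65.8) and Sdc1 (65.6) were abundant. Mdk, encoding midkine, the other member of the pleiotrophin family, reached at most 10 reads in any library and Alk at most 12. Ptprz1 was highest in ctrl at day 0, at 0.554 FPKM, and lay below the filter for testing. The heparan sulfate proteoglycan Sdc3, also a pleiotrophin receptor, was at 65.8 ± 3.37 FPKM in Cre and 41.0 ± 1.71 FPKM with full-length NFIA at day 0 (log2 change -0.67, limma adjusted p = 3.72e-05). At day 7 it was at 32.1 ± 4.33 and 7.01 ± 0.308 FPKM (-2.04, limma adjusted p = 5.75e-08). With the mutant Sdc3 was at 54.2 ± 4.80 FPKM at day 0, lower than in Cre (-0.28, limma adjusted p = 0.0161). Its day 7 level with the mutant was 28.4 FPKM, and the difference from Cre of -0.16 did not pass (limma adjusted p = 0.384).

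Of 17 other genes of the pleiotrophin ligand and receptor list 12 were tested. With full-length NFIA at day 0, 5 were lower and 2 higher than in Cre (median -0.14, against 0.02 over all genes), where 12.9% and 14.7% of all tested genes passed as lower and higher. Gpc2, a glypican, fell by 1.24, and Sdc1, another syndecan, rose by 0.37. Nucleolin (Ncl) rose by 0.28, a call lost without Cre + NFIA replicate 3 (0.24, limma adjusted p = 0.0562). At day 7, 10 were lower and 1 higher (median -0.90, against -0.06), beside backgrounds of 35.9% and 27.0%. Sdc3 fell most, then the chondroitin sulfate proteoglycan Vcan, by 1.66 (limma adjusted p = 2.07e-06), and the 1 that rose was Nrp1, by 0.47. With the mutant at day 0, 3 were lower and 2 higher (median -0.14, against 0.01), where 9.02% and 9.26% of tested genes passed. Sdc1 rose by 0.88 and Vcan by 0.30, although Vcan no longer passed with quantile normalization (limma adjusted p = 0.0523), while Gpc2 fell by 0.90 and Nrp1 by 0.71. At day 7, 2 were lower, Nrp1 at -0.35 and Gpc2 at -0.31, and 5 were higher, led by Sdc4 and Sdc1 at 0.47 and 0.46, beside backgrounds of 10.0% and 7.70% (median 0.28, against 0.02). The call of Gpc2 there was lost without Cre replicate 1 (-0.25, limma adjusted p = 0.0563).

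Around Cemip, the genes that make, bind or break down hyaluronan did not share 1 direction at day 0. The synthase Has2 was at 3.62 FPKM in Cre and 4.13 FPKM with full-length NFIA (difference 0.15, limma adjusted p = 0.212). Has3 was below the filter throughout, with at most 54 reads, and Has1 reached a mean of 1.26 FPKM in 1 group only, the mutant at day 7. Although low, Has1 also passed as higher with full-length NFIA at day 0, at 0.736 against 0.102 FPKM in Cre (0.65, limma adjusted p = 0.00167). The hyaluronidases Hyal1 and Hyal2 stayed between group means of 2.61 and 6.30 and of 18.1 and 21.1 FPKM. Tmem2, the cell surface relative of Cemip, was at 9.23 FPKM in Cre and 9.31 FPKM with full-length NFIA at day 0, and at day 7 at 6.13 and 3.66 FPKM (-0.61, limma adjusted p = 1.11e-04). Cd44, the main hyaluronan receptor, went the other way from Cemip at day 0, from 28.7 ± 1.56 to 37.6 ± 1.28 FPKM (0.38, limma adjusted p = 0.00172). At day 7 it was lower with full-length NFIA, at 11.5 ± 0.673 against 21.2 ± 2.82 FPKM (-0.81, limma adjusted p = 1.55e-04), and higher with the mutant, at 31.7 ± 2.93 FPKM (0.57, limma adjusted p = 0.0108), a call lost without Cre + NFIA Δpro#3 replicate 1 (0.50, limma adjusted p = 0.0517).

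Of the other genes on the hyaluronan list, 28 were in the expression data and 18 were tested. With full-length NFIA at day 0, 3 were lower and 5 higher than in Cre, beside backgrounds of 12.9% lower and 14.7% higher (median 0.05, against 0.02 over all genes). Itih2, an inter-alpha-trypsin inhibitor heavy chain that is linked to hyaluronan, fell by 0.80 and the scavenger receptor Stab1 by 0.48, while Tnfaip6, which attaches such heavy chains to hyaluronan, rose by 0.62 and the motility receptor Hmmr by 0.51. At day 7, 9 were lower and 0 higher by limma, beside 35.9% and 27.0% (median -0.27, against -0.06). At an unadjusted p under 0.05 the number higher was 2, by voom it was 1, and with median-of-ratios size factors 4 passed as higher. Ptx3, a pentraxin that stabilises hyaluronan matrix, fell by 1.87 (limma adjusted p = 5.81e-09) and Vcan by 1.66. With the mutant at day 0, 1 was lower (Tnfaip6, -0.41) and 2 were higher (Ptx3 by 0.32 and Vcan by 0.30), beside 9.02% and 9.26% (median -0.01, against 0.01). Neither rise passed with quantile normalization (limma adjusted p = 0.175 and 0.0523), and the fall of Tnfaip6 was lost without Cre replicate 2 or 3 or Cre + NFIA Δpro#3 replicate 1 or 3 (-0.42 to -0.34, limma adjusted p = 0.0545 to 0.0901). At day 7, 4 were higher and 0 lower by limma (1 lower at an unadjusted p under 0.05 and 0 by voom, median 0.18, against 0.02), beside backgrounds of 7.70% higher and 10.0% lower, led by Has1 at 0.63 and Cd44 at 0.57. Has1 no longer passed without Cre replicate 1 or 2 (0.58 and 0.56, limma adjusted p = 0.0556 and 0.0603). Its call was also lost with a pseudocount of 0.1 (1.32, limma adjusted p = 0.0519).

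For nephronectin the receptor pair was unevenly present. Itgb1 was abundant, with group means of 81.6 to 155 FPKM, whereas Itga8, its partner in the nephronectin receptor, reached no more than 50 reads and stayed below the filter. Egfl6, the closest relative of Npnt, was a low gene. It was at 0.715 ± 0.194 FPKM in Cre, 0.0722 ± 0.0693 with full-length NFIA and 0.127 ± 0.0920 with the mutant at day 0, from at most 20 reads a library. At day 7 it was at 1.52 ± 0.199, 0.156 ± 0.0338 and 0.281 ± 0.137 FPKM, and both falls against Cre passed (-1.12, limma adjusted p = 1.05e-05, and -0.98, limma adjusted p = 6.82e-04).

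Of 26 other genes of the nephronectin, integrin and FRAS/FREM list, 15 were tested. Itgav is also in the pleiotrophin list, as Vcan is in 2 lists. With full-length NFIA at day 0, 5 were lower and 3 higher, beside backgrounds of 12.9% and 14.7% (median 0.00, against 0.02). Itga11, a collagen receptor subunit, fell by 0.70 and osteopontin (Spp1) by 0.67, while the laminin receptor subunits Itga6 and Itga3 rose by 1.13 and 0.77. At day 7, 11 were lower and 2 higher, beside 35.9% and 27.0% (median -0.70, against -0.06), led by Itgb5 and Spp1, each at -1.23, and by Itga7 and Itga6, which rose by 1.40 and 0.75. With the mutant at day 0, 4 were lower and 3 higher, beside 9.02% and 9.26% (median 0.07, against 0.01). Itga11 fell by 0.51 and Itga1 by 0.30, and Itga3 and Gdnf rose by 0.49 and 0.31. The call of Itga1 (limma adjusted p = 0.0498) was lost with 10 of the 12 libraries left out in turn (0.0573 to 0.164). Only without ctrl replicate 2 or Cre replicate 3 was it kept. It was also lost with a pseudocount of 5 (0.0663), no filter (0.0694), quantile normalization (0.0723) and the replicate block (0.0757). The same held with all 24 libraries in the model (0.0794) and with only the groups compared (0.096). The call of Gdnf was lost without Cre replicate 2 or any Cre + NFIA Δpro#3 replicate (0.24 to 0.34, limma adjusted p at least 0.0553). With only the groups compared Gdnf did not pass either (limma adjusted p = 0.0617). At day 7, 3 were lower and 7 higher, beside 10.0% and 7.70% (median 0.27, against 0.02). Itga7 and Itga6 fell by 1.60 and 1.49 with the mutant, the opposite direction to full-length NFIA, and tenascin C (Tnc) and fibronectin (Fn1) rose by 0.77 and 0.74.

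The RANKL system that LRRC17 is known to restrain was hardly expressed. Tnfsf11, which encodes RANKL, had group means of 0.179 to 2.58 FPKM, its receptor Tnfrsf11a at most 8 reads and its decoy receptor Tnfrsf11b at most 21. With full-length NFIA, 4 of 11 tested genes of this list were lower at day 0 and 0 were higher by limma (2 higher at an unadjusted p under 0.05 and 1 by voom; median -0.16, against 0.02), and 7 were lower and 1 higher at day 7 (median -0.45, against -0.06). The backgrounds were 12.9% lower and 14.7% higher at day 0, and 35.9% and 27.0% at day 7. Lrrc32, another leucine-rich repeat protein, which anchors latent TGF-beta at the cell surface, fell by 0.78 at day 0 and by 2.16 at day 7 (limma adjusted p = 3.70e-09). The protease Ctsk fell by 0.44 and 1.62, and its day 0 call was lost without Cre replicate 1 or 2 or Cre + NFIA replicate 1 or 3 (-0.40 to -0.37, limma adjusted p = 0.0616 to 0.0777). That call was also lost with only the groups compared (limma adjusted p = 0.0509). Acp5, a phosphatase of osteoclasts, rose by 1.90 at day 7, to 3.10 ± 0.285 FPKM. With the mutant at day 0, 4 were lower and 3 higher, beside 9.02% and 9.26% (median 0.01, against 0.01), with Ctsk and Lgr4, a receptor that binds RANKL, at -0.84 and -0.54, and Csf1r, the receptor of M-CSF, and Tnfsf11 higher by 1.00 and 0.49. At day 7, 1 was higher, Lrrc32 by 0.51, and 0 were lower by limma (1 at an unadjusted p under 0.05 and 0 by voom; median 0.13, against 0.02), beside backgrounds of 7.70% higher and 10.0% lower.

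**Figure D4:**
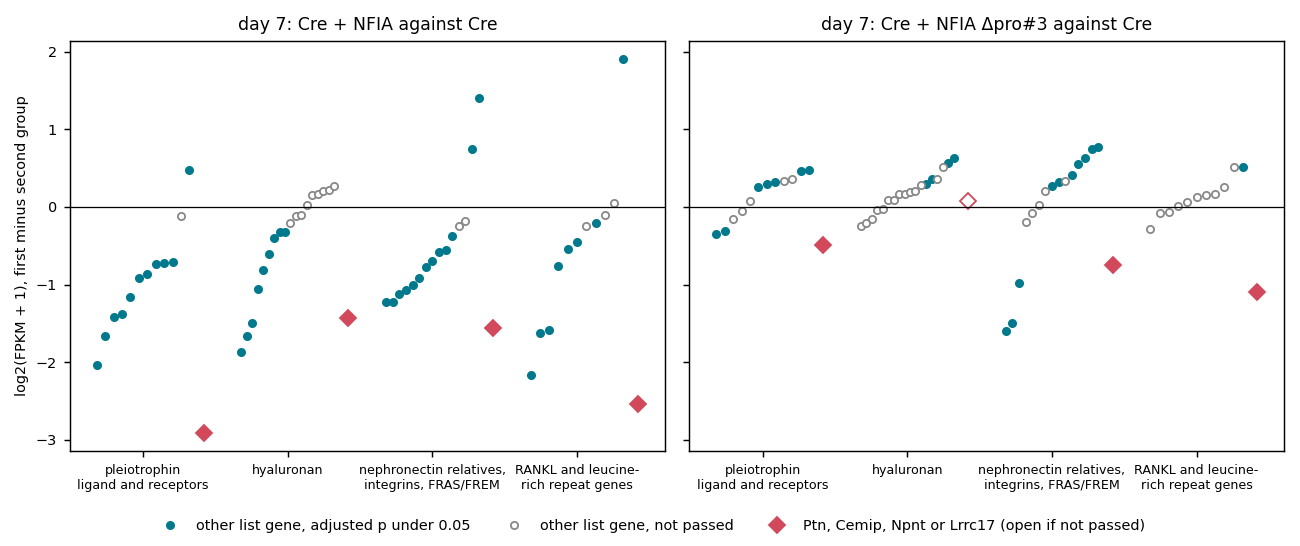
Log2 differences at day 7 of the other tested genes of the 4 lists (circles, filled where the adjusted p was under 0.05), sorted within each list, beside the gene that heads it (diamonds: Ptn, Cemip, Npnt and Lrrc17, open where not passed). With full-length NFIA most list genes lie below Cre along with the 4 genes, and with the mutant Ptn, Npnt and Lrrc17 are lower by -0.49, -0.75 and -1.09 while the medians of the other list genes are 0.13 to 0.28.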

How the data were processed

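RNA-seq libraries (polyA RNA, TruSeq stranded) were aligned by the authors with STAR 2.5.3a to mm9; uniquely aligned reads were counted per gene on the matching strand and deposited as FPKM. The gene annotation is not given in the sources used here. The smallest step of the FPKM values, with the deposited gene lengths, gave each library's total, and 100% of values then came out within 0.05 of a whole read. Replicate libraries differed beyond sampling noise (chi-square per degree of freedom 2.21 to 15.91 in 24 pairs). Nothing states separate cultures, so p-values measure the spread between these libraries, which may be technical.

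Genes with at least 1 FPKM in at least 3 libraries (12640) were tested with limma 3.58.1 (R 4.3.3) on log2(FPKM + 1), with a mean-variance trend and Benjamini-Hochberg adjustment over all of them, on the 12 libraries of a day, or on all 24 for ctrl over time. Passed means an adjusted p under 0.05. On simulated data for Cre + NFIA against Cre at day 7, 12231 genes were tested, among them 200 changed 4-fold. Of these 198 were recovered, and there were 9 calls of other genes. The simulation gave all genes the same dispersion and left the others unchanged. Its rates therefore do not carry over to smaller changes or to the spread of the real libraries. Intervals are 95%. Pathway genes in the text are the 2 largest rises and falls that passed with a mean of at least 1 FPKM in either group, and partners chosen by name. Genes of like pattern are the 3 with the highest Pearson's r. The 4 genes and all lists were chosen with earlier results of these data known. Alternatives were other pseudocounts, filters, scalings and models, a replicate block, voom on the recovered reads and leaving out each library. Figures were drawn with matplotlib. Deviations of same-numbered libraries from their group means had correlations of -0.274 to 0.218. Whether these libraries were paired is not stated.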

Additional observations from a re-analysis of the deposited data

Results flagged for a closer look

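Some effects ran in opposite directions, with no overlap between the libraries compared, in 2 groups. None of these differences was tested, because the day 0 levels with either NFIA helped to choose the genes. Differences are on the log2(FPKM + 1) scale.

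The mutant was below ctrl at day 0 and above it at day 7 in 3 genes. The low day 0 level with the mutant was part of the choice of the genes. At day 7, 41.4% of tested genes passed as higher with the mutant than in ctrl. The share of all genes that changed direction in this way was not counted. For Ptn the values were -1.76 and 1.43, a difference of 3.19. For Cemip they were -1.68 and 0.86, a difference of 2.54. For Npnt they were -1.63 and 0.44, a difference of 2.07. Lrrc17 went from -2.15 to 0.26, with overlap at day 7.

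Over time, ctrl fell where other cell types rose. In ctrl 38.1% of tested genes passed as lower at day 7, and for the other cell types no such share was counted. The choice of genes with low day 0 levels with either NFIA may favour a rise there. Ptn changed by -2.05 in ctrl and 1.14 with the mutant, a difference of 3.19. Npnt changed by -0.41 in ctrl, 0.52 in Cre, 1.33 with full-length NFIA and 1.66 with the mutant, so that the differences from ctrl were 0.94, 1.75 and 2.07. Lrrc17 changed by -1.02 in ctrl, 0.43 in Cre and 1.39 with the mutant, with differences from ctrl of 1.45 and 2.42. The groups also differed in the summed adipocyte markers at day 7 (22100 to 25557 FPKM in ctrl, 842 to 2145 FPKM with the mutant), and the part of that in these differences was not tested.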

How the results depend on the processing

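Of 688 alternative values for the 28 tests of the 4 genes, 682 kept their direction and side of the threshold. The exceptions left out 1 library. Leaving out libraries in turn gave -0.06 to 0.20 for Cemip with the mutant against Cre at day 7 (reversed, at -0.06, without Cre replicate 2), -0.44 to -0.31 for Npnt with full-length NFIA against ctrl at day 7, and 0.15 to 0.39 for Lrrc17 with the mutant against ctrl at day 7. Deviations of same-numbered libraries from their group means had correlations of -0.274 to 0.218, which cannot settle whether those libraries were paired. With the replicate block all 28 tests kept their call. With the block, 1 RANKL list gene passed as lower with the mutant at day 7, in place of 0. Of 408 alternative day 0 values, 35 moved by over 1 SD, and none of these reversed. Changes of sign within 1 SD were not counted. Ptn in Cre against ctrl, at 0.04, ranged from -0.01 to 0.10. Npnt with full-length NFIA against Cre at day 0 was -2.37, -1.17 with a pseudocount of 5, -3.29 with 0.1 and -3.44 by voom. At day 7 a pseudocount of 5 changed the same comparison from -1.43 to -0.72 for Cemip and from -1.56 to -1.01 for Npnt, and both still passed.

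For 57 differences of single list genes, 1257 alternative values kept direction and side of the threshold and 40 lost the call, none reversing.

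Of 352 alternative list counts, 325 were within 1.5 times. With quantile normalization, counts higher with the mutant at day 0 were 1 in the pleiotrophin and 0 in the hyaluronan list, and 3 hyaluronan genes passed as higher with full-length NFIA at day 7. For that last count the value was 1 without a filter, 4 with median-of-ratios size factors, 2 with only the groups compared, 1 with all 24 libraries in the model, 1 without a trend and 1 by voom. For a mean of at least 5 FPKM, which tests fewer genes, day 0 counts were 3 hyaluronan genes higher and 2 nephronectin list genes lower with full-length NFIA, and 0 hyaluronan and 1 nephronectin list gene lower and 1 RANKL list gene higher with the mutant. At day 7 under that filter 7 nephronectin list genes were lower and 0 RANKL list genes higher with full-length NFIA. By voom, 0 hyaluronan genes were lower with the mutant and 1 RANKL list gene higher with full-length NFIA at day 0. With the mutant at day 7, counts of hyaluronan genes were 7 higher with all 24 libraries in the model and 1 lower without a filter, 3 nephronectin list genes were higher with only the groups compared, and 2 RANKL list genes were higher with a pseudocount of 0.1, with only the groups compared, with all 24 libraries in the model and by voom. Without a filter 2 RANKL list genes were higher with full-length NFIA at day 7. The cause of the other shifts was not tested. Depth limits Npnt with full-length NFIA at day 0 (32 to 37 reads) and partners such as Mdk and Tnfrsf11a (at most 10 and 8 reads), where a count of 3 reads in a library was the floor.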
